A study of Mus musculus with 4 samples.

Results

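The contractile genes Myl7, Myl4 and Sln, standard markers of atrial heart muscle, were followed through sham-operated mouse heart tissue. They are 3 of 35299 loci in the deposited table, of which 26078 carry a model with a UCSC identifier. Each was to be the locus with a UCSC model and the highest mean in a fixed interval of the mm9 mouse genome. The series has 1 group, Sham, of 4 biological replicates: heart of C57BL/6J mice aged 12 weeks, removed 2 weeks after a sham operation at the site that would border an infarct. No second group is analysed here, so levels are compared between libraries and between genes, not between conditions. The free-text label of replicate 4 leaves out that the infarct was a sham one, which its title and treatment state. Total RNA was poly(A)-selected and sequenced as paired reads of 100 bases. The 4 libraries are called 3RL, 7LR, 8R and 12RL after the table's columns, and the labels use none of these names, so that no library can be tied to a replicate number, replicate 4 included. The labels do not say which chambers a piece of tissue held.

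Myosin, the motor of heart muscle, carries a regulatory and an essential light chain on each head, and atria and ventricles use different genes for both. Myl7 encodes the atrial regulatory light chain and Myl2 the ventricular one. Myl4 encodes the atrial essential light chain, which is also made in embryonic muscle, and Myl3 encodes the ventricular one. Sln encodes sarcolipin, a small membrane protein that inhibits the calcium pump of the sarcoplasmic reticulum and is found mainly in atrial and in skeletal muscle. Pln encodes phospholamban, a related small inhibitor of the same pump Atp2a2 that is most abundant in ventricular muscle.

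The atrial and ventricular light chains are similar in sequence, and the most alike stretches of 100 coding bases, the length of 1 read, are shown to let a reader judge how far reads of the pairs can be told apart. Capitals mark the bases that differ within a pair, and the sequences come from GENCODE vM21 transcripts on GRCm38. In the regulatory pair, coding bases 70 to 169 of Myl7 lie in exons 2 to 3 of 7 and coding bases 46 to 145 of Myl2 in exons 2 to 3 of 8, and they differ at 24 of 100 positions (76.0% identity).
Myl7: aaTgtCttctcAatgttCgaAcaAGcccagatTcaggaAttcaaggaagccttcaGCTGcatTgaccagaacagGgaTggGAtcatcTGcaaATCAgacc
Myl2: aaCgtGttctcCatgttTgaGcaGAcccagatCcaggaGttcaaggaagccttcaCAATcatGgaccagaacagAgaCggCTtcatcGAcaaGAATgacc
In the essential pair, coding bases 352 to 451 of Myl4 lie in exon 5 of 8 and coding bases 385 to 484 of Myl3 in exon 4 of 7, and they differ at 14 positions (86.0% identity).
Myl4: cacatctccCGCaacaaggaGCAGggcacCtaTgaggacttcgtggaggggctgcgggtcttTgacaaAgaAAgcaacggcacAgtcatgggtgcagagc
Myl3: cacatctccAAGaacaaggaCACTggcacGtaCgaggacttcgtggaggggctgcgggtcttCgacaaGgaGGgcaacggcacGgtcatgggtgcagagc
The coding sequence of Sln is short, with 96 bases for 31 codons and a stop, against 159 bases for 52 codons in Pln. Both are shown whole, in lower case throughout because their lengths differ and no bases were paired.
Sln: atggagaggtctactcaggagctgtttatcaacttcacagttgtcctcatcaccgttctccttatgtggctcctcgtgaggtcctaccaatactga
Pln: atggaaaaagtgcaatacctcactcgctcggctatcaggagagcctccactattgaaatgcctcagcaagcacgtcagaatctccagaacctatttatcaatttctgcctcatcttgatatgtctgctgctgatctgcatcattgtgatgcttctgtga
The longest exact run that a member's transcript shares with its counterpart is 16 bases for Myl7 and Myl2, 29 for Myl4 and Myl3, and 14 for Sln and Pln. Against transcripts of every other gene the longest runs were 20 bases for Myl7 (with Abca13), 29 for Myl4 (with Myl3) and 21 for Sln (with Eif2b3). A read of 100 bases placed on another gene with at most 2 differences would need a shared run of at least 33 bases, which none of the 3 annotated transcripts searched has. The longer 3' end of a second, assembled Myl7 model was not searched. The Myl4 transcript searched has 8 exons and 943 bases, and the counted Myl4 models have 9 and 6 exons. Some counted bases of Myl4 may thus not have been searched. The sources used here do not give the authors' alignment settings.

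On mm9, Myl7 is the locus at chr11:5795540-5798785 on the minus strand, and Myl4 the locus at chr11:104411977-104448533 on the plus strand. Sln is the locus at chr9:53698058-53701656 on the plus strand. The highest locus that touches the Myl4 interval was not Myl4 but Cdc27, a subunit of the anaphase-promoting complex. Cdc27 lies on the opposite strand, covers 935 bases of the interval, and had a mean of 3804 ± 156 normalised read counts (SD, n = 4). The next highest locus, which fills 36557 bases of the interval and whose exon lengths match Myl4, was used. The models carry no gene symbols, so every symbol here rests on exon lengths or on position relative to neighbouring genes. All 3 members matched by exon lengths, and Myl7 also by position.

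Myl7 has 2 models of 7 exons each, with spliced lengths of 590 bases (UCSC) and 1690 bases (assembled). They differ by an extension of 1100 bases at the 3' end, which makes an end exon of 1245 bases. Myl4 has 2 UCSC models, of 9 exons and 883 bases and of 6 exons and 646 bases, the shorter one starting well inside the longer. Sln has 1 UCSC model of 2 exons and 520 bases. The GENCODE vM21 transcript of Sln used for the sequence search has 1318 bases, so part of it lies outside the counted model. The table has 1 value per locus, so the models of Myl7 and of Myl4 cannot be separated in it.

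**Figure D1:**
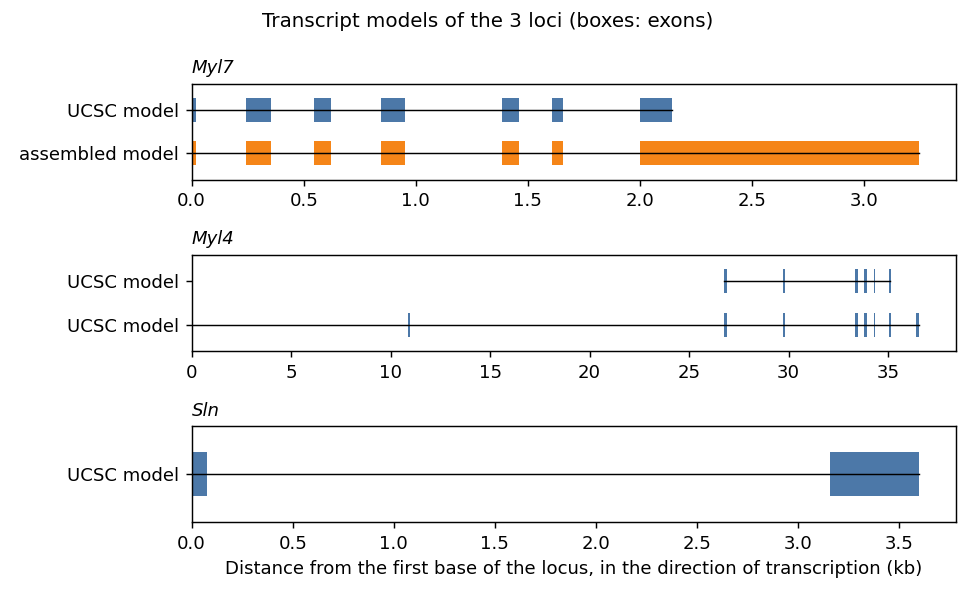
Transcript models of Myl7, Myl4 and Sln, drawn in the direction of transcription with the distance from the first base of each locus in kb on the horizontal axis. Boxes are exons, blue for UCSC models and orange for the assembled one: the 2 Myl7 models differ in the length of their end exon, and the 2 Myl4 models in where they start and end.

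Members were given in normalised read counts, the authors' read counts divided by 1 size factor per library. Whole reads could be recovered from these values, so the reads behind each value are also known. The libraries held from 108345923 reads (12RL) to 160670654 reads (8R), 552095491 in all. Levels of Myl2 and Myl3, the defining ventricular light chains, ranked 13 and 19 of 35299 loci by mean, and the atrial peptide gene Nppa had between 15578 and 18866 normalised read counts. Bulk tissue gives 1 value per gene, so fewer cells of a type and less RNA per cell cannot be told apart.

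Myl7 had few reads in 3 libraries and several times as many in the fourth. In the order 3RL, 7LR, 8R and 12RL it had 10, 11, 2 and 75 reads, which are 11.9, 12.5, 2.27 and 118 normalised read counts. The exact 95% Poisson intervals, which cover counting error only, were 5.72 to 22.0, 6.25 to 22.4, 0.275 to 8.21 and, for 12RL, 93.0 to 148. The interval of 12RL lies above and apart from the other 3, which overlap one another. The mean was 36.2 ± 54.9 (SD, n = 4), and 8.91 ± 5.76 (SD, n = 3) without 12RL. With 98 reads in all 4 libraries together, Myl7 ranked 15146 of 35299 loci by mean.

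Myl4 had the same high library, on more reads. It had 145, 153, 162 and 292 reads in the same order of libraries, or 173, 174, 184 and 460 normalised read counts. The 3 libraries other than 12RL were nearly equal, with the highest 1.06 times the lowest, and 12RL stood above all of them with an interval of 409 to 516. The mean was 248.0 ± 142 (SD, n = 4), and 177 ± 6.09 (SD, n = 3) without 12RL, so that the CV went from 57.1% to 3.44%. Counting error alone gives a CV of 7.29% at the mean reads of Myl4 over the 4 libraries. The 3.44% is below that and does not measure how steady Myl4 is between libraries. Myl4 ranked 11706 by mean and had the most reads of the 3 members, 752 in total.

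Sln was at the edge of detection over its counted model of 520 bases. It had 4, 0, 2 and 4 reads in that order, or 4.77, 0, 2.27 and 6.31 normalised read counts. The 0 in 7LR allows up to 3.42 normalised read counts by a floor of 3 reads, and the two-sided interval used for the other values reaches 3.69 reads. The 4 intervals overlap, so no library can be called higher or lower for Sln at this depth. Over all 552095491 reads Sln had 10 (exact 95% Poisson interval 4.80 to 18.4), a mean of 3.34 ± 2.78 (SD, n = 4) and rank 23189.

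**Figure D2:**
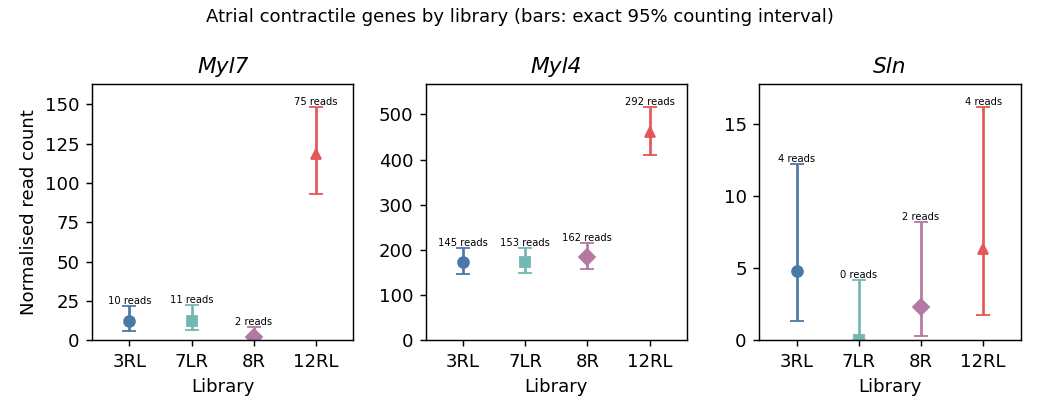
Normalised read counts of Myl7, Myl4 and Sln in each of the 4 libraries, with the exact 95% counting interval as bars and the recovered reads printed above each point. The vertical scale differs between panels: 12RL is above the other 3 libraries for Myl7 and Myl4, while the 4 intervals of Sln overlap.

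Levels can be compared between genes only per length, so normalised read counts were divided by the longest spliced UCSC model in kb. Myl4 was then at 281 ± 160 per kb, Myl7 at 61.4 ± 93.0 and Sln at 6.42 ± 5.34 (SD, n = 4). Myl7 was below Myl4 in 4 of 4 libraries, by a mean log2 difference of -3.22 ± 1.58 (1 was added to each normalised read count before division by length). The gap was narrowest in 12RL (-1.37) and widest in 8R (-5.24). Sln was below Myl4 in 4 of 4 libraries (-5.28 ± 1.05) and below Myl7 in 3 of 4 (-2.06 ± 1.97). In 8R both Sln and Myl7 had 2 reads. An exact two-sided sign-flip permutation test over the 4 libraries cannot give less than 2 of 16 sign patterns (p = 0.13), so no order can pass 0.05 in this design. For both pairs with Myl4 the exact permutation p was 0.13 (0.15 after Benjamini-Hochberg adjustment over 6 pairs), and for Sln and Myl7 it was 0.25 (0.25 adjusted).

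The gap between Sln and Myl7 depended on which Myl7 model sets its length. With merged exons of all models, the assembled ones included, Sln minus Myl7 was -0.54 (exact permutation p = 0.625) and Myl7 minus Myl4 was -4.71, while Sln minus Myl4 stayed at -5.25. With a pseudocount of 10 the 3 differences shrank to -0.997 (Sln and Myl7), -2.41 (Myl7 and Myl4) and -3.40 (Sln and Myl4).

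Each member was far below its counterpart. Myl2, the ventricular partner of Myl7, was at 1548551 ± 163348 per kb, Myl3 at 775411 ± 70739 and Pln at 331484 ± 15528 (SD, n = 4). For every 1000000 counts per kb of Myl2 there were 13.3 of Myl7 in 3RL, 14.9 in 7LR and 2.16 in 8R (95% interval 0.261 to 7.79), against 137 in 12RL (108 to 172). Summed over the 4 libraries the ratio was 33.1 (26.8 to 40.3). These intervals cover counting error only, and the summed one leaves out the far wider spread between libraries. Of the 98 Myl7 reads behind the sum, 75 came from 12RL. The share of the atrial regulatory chain was thus a small fraction of its counterpart even in the library where it was highest.

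For every 1000000 counts per kb of Myl3 there were between 240 (8R) and 283 (7LR) of Myl4 in the other libraries and 682 (606 to 765) in 12RL. For every 1000000 counts per kb of Pln there were 29.3 of Sln in 3RL, 12.5 (1.51 to 45.0) in 8R and 36.3 in 12RL. In 7LR, where Sln had 0 reads, the interval reached 24.7. The mean log2 differences were -15.78 ± 2.25 for Myl7 and Myl2, -11.56 ± 0.70 for Myl4 and Myl3 and -15.62 ± 1.29 for Sln and Pln. Each member was the lower one in 4 of 4 libraries, and each exact sign-flip permutation p was 0.13 (0.15 adjusted over 6), the smallest possible. With merged exons of all models, which take the lengths of Myl2, Myl3 and Pln to 8641, 8510 and 7011 bases, the differences were -13.53, -8.34 and -14.02. Without division by length Sln and Pln differed by -17.77, and with a pseudocount of 10 the differences were -14.90 (Myl7 and Myl2) and -13.68 (Sln and Pln).

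The counterparts did not share the pattern of the members. Myl2, Myl3 and Pln were each highest in 8R, and their levels in 12RL were 0.817, 0.880 and 0.953 times the highest of the other 3 libraries. Their highest library was 1.25, 1.25 and 1.12 times the lowest.

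**Figure D3:**
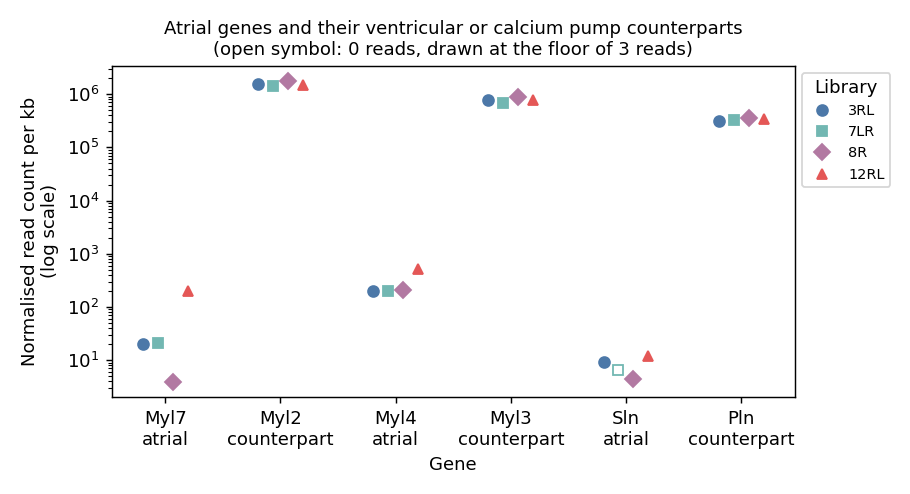
Normalised read counts per kb of spliced length, on a log scale, of the 3 atrial genes and their counterparts, 1 point per library. The counterparts lie between 313644 and 1786596 per kb in every library, and the atrial genes are at most 521.

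Library 12RL had the highest normalised value of 3 of 3 members, for Sln on the same 4 reads as 3RL, and 20.7% of the 18912 loci with a mean of at least 10 had 12RL as their highest library. It stood apart upward by Dixon's ratio, the gap to the next library over the whole range, for Myl7 (0.912) and Myl4 (0.961), which passes the 95% critical value for 4 values, and not for Sln (0.243). That is 2 of 3 members, against 0.529% of the same loci. Sln, with a mean of 3.34, is outside that set of loci. The background counts loci of every kind, many with other levels than the members, and the members were picked with this pattern already known, so the count carries no test.

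In 12RL, Myl7 was 9.44 times the next library (95% interval 4.99 to 19.7), Myl4 was 2.50 times (2.06 to 3.05) and Sln 1.32 times (0.246 to 7.09). The interval of Sln spans 1, so its rank in 12RL is within counting error. In reads before scaling, where 12RL is the shallowest library, Myl7 was still 6.82 times and Myl4 1.80 times the next library. The highest library was 52.0 times the lowest for Myl7 (13.9 to 437) and 2.66 times for Myl4 (2.17 to 3.27). Of those 18912 loci, 18.6% reached a ratio of 2 between highest and lowest. Without 12RL the ratio was 5.51 for Myl7 and 1.06 for Myl4.

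The spread of Myl7 was wider than that of any of the 500 loci nearest to it in mean level: its CV was 151%, and their median was 28.0%. For Myl4 the CV of 57.1% was passed by 7 of its 500 nearest loci, whose median was 16.4%. For Sln the CV of 83.2% was passed by 126 of 500, whose median was 65.1%. None of the 500 neighbours of Myl7, and none of those of Myl4, was as high in 12RL relative to the next library as the member itself. The neighbours were chosen by the mean of all 4 libraries. Library 12RL lifts that mean from 8.91 to 36.2 for Myl7 and from 177 to 248 for Myl4. The same 12RL value thus sets both the neighbours and the spread, so these ranks describe the members and test nothing.

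Ranking loci by 12RL over the next library was chosen after these values were seen and is a description. Of 14954 loci with a UCSC model and a mean of 10 or more, 34 (0.227%) reached 2 times the next library and 2 (0.0134%) reached 5 times. The 2 were Clec3a, a cartilage lectin, at 14.3 times on 1, 2, 3 and 31 reads, and Myl7 at 9.44 times. They were followed by Prss35 at 4.84 times, Upp2 at 3.19, Hapln1 at 3.08 and Cyct at 3.07, with Myl4 in place 12. That minimum uses the mean of all 4 libraries, and Myl7 passes it only through 12RL, with a mean of 8.91 without it. A low locus that is high in 12RL thus enters the ranking through the value it is ranked on. When the mean had to be 50 or more, 4 of 13251 loci (0.0302%) reached 2 times, and Myl4 led them. The others were the signalling ligand Wnt9b (2.41 times), the cytochrome gene Cyp2e1 (2.38) and Xlr4a (2.09).

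**Figure D4:**
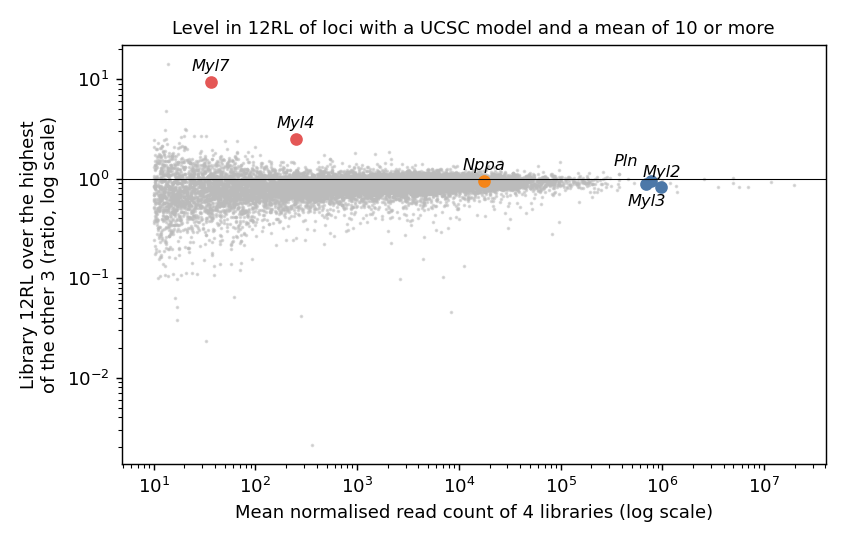
Ratio of the normalised read count in 12RL to the highest of the other 3 libraries against the mean of 4 libraries, both on log scales, for loci with a UCSC model and a mean of 10 or more. Grey points are all such loci above 0 in 12RL. Myl7 (9.44) and Myl4 (2.50) lie above nearly all loci of like mean, and Nppa, Myl2, Myl3 and Pln lie near 1. The mean includes 12RL, and Myl7 reaches 10 only through it.

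Other genes known for atrial muscle were close in 12RL to their mean in the other libraries. The difference between log2(12RL + 1) and the mean of log2(value + 1) in the other 3 libraries was 3.84 for Myl7, 1.37 for Myl4 and 1.46 for Sln. The 10 other atrial genes all matched a locus, and 9 had a mean of 10 or more. Over these 9 the median was 0.05 and the highest 0.47. In 2 of the 9 the highest library was 12RL, at most 1.11 times the next, and 0 of 9 reached 2 times. Of all 18912 loci with such a mean, 20.7% were highest in 12RL and 87 loci reached 2 times. Both counts of the list are thus near the share over all loci. The median over all 18912 loci was -0.03. The summed level of the 10 genes ran from 70831 (7LR) to 81565 (8R), with 77972 in 12RL. Most of that sum came from Kcnk3 (mean 40178), Nppa (17713) and Kcnj3 (12022), which were high in every library. Myl7 had 118 normalised read counts in 12RL, and a change of that size could not be seen in the sum. Whether atrial tissue had a part in the level of Myl7 and Myl4 in 12RL was not tested.

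Nppa, the atrial peptide that ventricles also make under load, had 18378, 15578, 18866 and 18029 normalised read counts, so 12RL was in its middle range. Dkk3, a secreted protein of the Dickkopf family, gave the upper end of the list (0.47), with 362, 380, 515 and 574 normalised read counts. The potassium channel genes Kcnk3 (-0.02) and Kcnj3 (-0.01) and the transcription factors Tbx5 (0.05) and Nr2f2 (0.16) were near 0. Bmp10, a growth factor of the atria, was at the floor in every library, with reads of 1, 0, 0 and 1. Its difference was 0.99, above that of the other listed atrial genes, but on these reads.

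Sets for other cell types were set beside the members, and their part in the level of Myl7 and Myl4 in 12RL was not tested. The 4 ventricular genes (Myl2, Myl3, Irx4 and Hey2) had a median of -0.06, from -0.12 to 0.35, with 1 highest in 12RL and a summed level of 1614892 in 12RL against 1533759 to 1915893 in the others. For 4 conduction system genes the median was 0.18, from -0.31 to 0.54, with 2 highest in 12RL (the adhesion protein gene Cntn2 and the calcium channel gene Cacna1g). Their summed level was 10655 in 12RL and 9177 to 10284 in the others. For 4 smooth muscle genes the median was -0.11, and the summed level was 25028 in 12RL against 23318 to 31679.

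Skeletal muscle also uses Sln, and 10 of 11 skeletal muscle genes matched a locus. Of these, 7 had a mean of 10 or more, with a median of 0.26, from -0.40 to 1.14, and 3 highest in 12RL. The summed level was 2404 in 12RL, inside the range of 2160 to 3629 in the others. The upper end was Pvalb, a calcium-binding protein, with 53.7, 21.6, 75.0 and 99.3 normalised read counts. The fast myosin gene Myh4 had 0 reads in every library. No gene of these 5 lists reached 2 times the next library in 12RL among those with a mean of 10 or more. Of all 18912 loci with such a mean only 87 did, so this absence is the rule for any list. The share of those loci highest in 12RL was 20.7%.

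**Figure D5:**
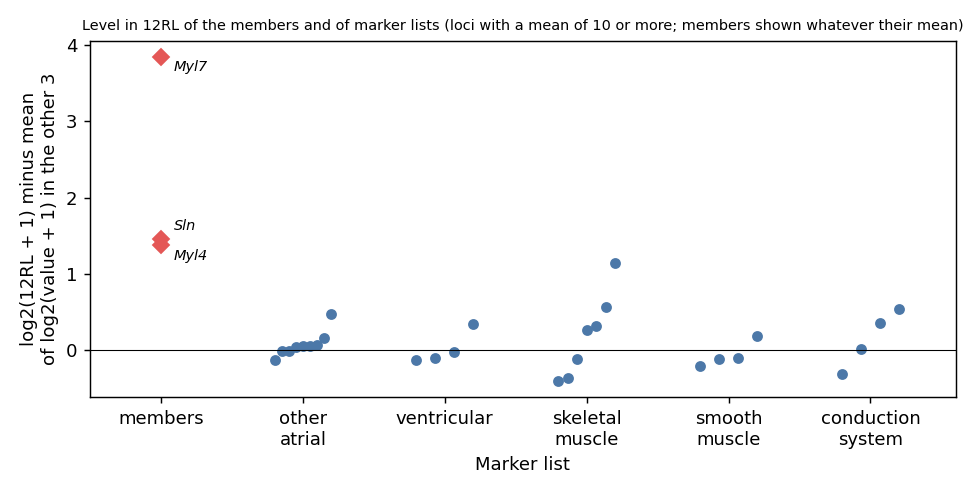
Difference between log2(12RL + 1) and the mean of log2(value + 1) in the other 3 libraries, 1 point per gene, for the 3 members and for 5 lists of marker genes with a mean of 10 or more. The members, shown whatever their mean, lie at 3.84 (Myl7), 1.46 (Sln, on 10 reads in all) and 1.37 (Myl4). The other atrial genes with a mean of 10 or more lie at 0.47 or below. Bmp10, below that mean with reads of 1, 0, 0 and 1, is not drawn and was at 0.99.

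Among the myosin light chains and their kinases, 15 symbols matched 13 loci, of which 11 are neither Myl7 nor Myl4. Of these 11, 10 had a mean of 10 or more, with a median of -0.10, from -0.40 to 0.26. In 2 of them 12RL was the highest library, and 0 reached 2 times the next. Over all 18912 loci with such a mean, 20.7% were highest in 12RL and 87 loci reached 2 times. By level per kb the order was Myl2, Myl3, the joint locus of Myl12a and Myl12b (47873 ± 7730), the cardiac light chain kinase Mylk3 (38731 ± 2670) and the joint locus of Myl6 and Myl6b (9220 ± 1360). Myl4, at 281 ± 160 per kb, was below the smooth muscle chain Myl9 (3173 ± 462) and the skeletal chain Myl1 (2642 ± 681). Myl7 was below Mylpf, the fast skeletal regulatory chain (137 ± 18.4), in mean, and above it in 12RL, where Myl7 was at 200 per kb. Myl10 had 0 reads in every library.

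Of the calcium pump genes and their small regulators, 6 of 9 symbols matched a locus. The cardiac pump Atp2a2 was at 481022 ± 23602 per kb, the non-muscle pump Atp2a3 at 574 ± 48.3 and the skeletal pump Atp2a1 at 41.3 ± 8.74. Myoregulin (Mrln), a pump inhibitor of skeletal muscle, was at 126 ± 33.6 per kb, above Sln at 6.42 ± 5.34. Over the 5 genes other than Sln the 12RL difference had a median of 0.07, from 0.02 to 0.54, with 2 highest in 12RL. The share over all 18912 loci with a mean of at least 10 was 20.7%. The upper end was Atp2a1, at 118, 131, 133 and 186 normalised read counts.

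The likeness of 2 genes over the libraries was measured as the root mean square difference of their log2(value + 1), each centred on its own mean. With 4 libraries no correlation was computed. Myl7 and Myl4 were 1.37 apart, and 24 of 13250 loci with a UCSC model and a mean of 50 or more were nearer to Myl7 than Myl4 was. Seen from Myl4, whose swing is smaller, 13229 of 13250 were nearer than Myl7. Sln was 1.71 from Myl7, with 769 loci nearer, and 0.91 from Myl4, with 12959 nearer. These counts rest on single libraries: without 12RL, 7199 loci were nearer to Myl7 than Myl4 and 13221 nearer than Sln, and without 8R, 4 were nearer than Myl4 and 245 nearer than Sln. Without 7LR, 73 loci were nearer to Myl7 than Sln and 638 nearer to Myl4 than Sln, and without 3RL, 260 were nearer to Myl7 than Sln. Myl7 and Myl4 thus share their highest library and not the size of their swing.

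Among the 5 loci nearest to Myl7 were an unnamed locus at chr7:74391424-74395004 (1.01), Wnt9b (1.15), Ubr4 (1.18) and Sertm1 (1.20). Wnt9b had 46, 37, 29 and 84 reads, so like Myl7 it was lowest in 8R and highest in 12RL. The nearest to Myl4 were Mlycd (0.18), Cyp2e1 (0.20), Sall1 (0.22), Nrtn (0.24) and Spock2 (0.24). Mlycd, the malonyl-CoA decarboxylase of fatty acid metabolism, had 1528, 1326, 1874 and 3440 normalised read counts. Among the 5 nearest to Sln were Gata3 (0.49), Pvalb (0.54), a locus at chr11:80290549-80294683 whose exons match Cdk5r1 and Snhg20 alike (0.63), and Grhl2 (0.66). With 10 reads behind Sln, its neighbours in this measure rest on counts of 0 to 4.

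Short transcripts differed between these libraries, and the members are short. About 500 loci nearest to Myl7 in spliced length had median log2 deviations of 0.03, -0.15, 0.22 and, for 12RL, -0.09. The trend was thus below 0 in 12RL, where Myl7 and Myl4 were highest. With it taken off, the deviation of 12RL from the mean of the 4 libraries was 2.97 for Myl7 (2.88 before), 1.12 for Myl4 (1.03) and 1.18 for Sln (1.09).

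Of the 7 loci within 50 kb of a member, none had 12RL above 1.02 times the next library. Pold2, a DNA polymerase subunit on the strand of Myl7 and 17320 bases away, was at 2708 ± 145 (SD, n = 4) and highest in 8R. Cdc27, 43 bases from Myl4 on the other strand, gave that 1.02, with 3983 normalised read counts in 12RL and 3887 in the next library. An unnamed locus at chr11:104418103-104423512, inside Myl4 on the other strand and sharing 3 exon bases with it, was at 59.7 ± 5.55 (SD, n = 4) and highest in 3RL. The sources used here do not say whether the authors' counting used strand. Itgb3, an integrin subunit 20837 bases from Myl4, was highest in 7LR, and Slc35f2, 32095 bases from Sln, had at most 10.2 normalised read counts in any library.

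Since Myl7 and Myl4 were both highest in 12RL, the 250 bases before their RefSeq start were searched for motifs, which are in capitals in the Myl7 window. This window is GRCm38 chr11:5898783-5899032 on the minus strand.
Myl7 promoter: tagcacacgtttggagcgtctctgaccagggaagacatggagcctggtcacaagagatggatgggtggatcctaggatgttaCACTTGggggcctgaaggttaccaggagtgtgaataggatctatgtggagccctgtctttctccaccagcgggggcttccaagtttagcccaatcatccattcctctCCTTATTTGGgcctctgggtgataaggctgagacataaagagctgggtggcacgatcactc
The Myl4 window is GRCm38 chr11:104550413-104550662 on the plus strand. It runs into the start of Cdc27 on the other strand and is not printed.
Both strands were searched for TATAAA of the TATA box, for AGATAA of GATA factors, for the E-box CANNTG, and for the CArG box of serum response factor and the MEF2 box. The Myl7 window holds 1 E-box, 168 bases before the start, and 1 CArG box, 61 bases before it, which do not overlap. The Myl4 window holds none of the 5. It lies before the start of the longer Myl4 model, and the bases before the start of the shorter model were not searched. The window of the counterpart Myl3, which was not highest in 12RL, also holds 1 E-box (189 bases before the start) and 1 CArG box (85 bases before it). The windows of Myl2 and Pln, which were not highest in 12RL either, each hold at least 1 E-box and no CArG box. Sln has no entry among the promoters searched. Among 32851 promoters of the same length, 66.2% hold an E-box, 1.47% a CArG box, 12.4% TATAAA, 9.99% AGATAA and 0.508% a MEF2 box. A match is a stretch of letters, not a measured site.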

How the data were processed

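The authors deposited a table of signal values, which are read counts scaled by a size factor for each of the 4 libraries (35299 loci), and exon positions of 77650 transcript models on mm9. Per the submitters' processing notes, the tools were DESeq, HTSeq 0.5.4p2, Cufflinks 2.0.2 and TopHat2 2.0.5. The sources used here do not give their roles, the strand setting or which libraries the models came from. Every deposited value (100%) was a whole multiple of 1 step per library within 0.001, so whole reads were recovered. No column was left out (0 unmapped).

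Members, lists and rules were chosen with earlier results of these data known. Loci were named by matching intron and inner exon lengths to GENCODE vM21 (added after the files were seen) or by span within 5% or 100 bases, strand and a shift shared with neighbours within 2 kb (RefSeq positions). No coordinate was converted. Of 26078 loci with a UCSC model, exon lengths named 19267 and span 12406, and 10907 of the 10918 named by both shared a symbol. Tnni2, Strit1, Erln and Arln matched no locus. Named are the members, counterparts, up to 6 genes per list by level per kb or at a list's ends, the 5 nearest loci with a mean of 50 or more, and loci within 50 kb, some of which are not reported here. The ends of the lists and low genes such as Bmp10 were added after values were seen, as were the ranking by 12RL and the backgrounds at a mean of 10. The step of 12RL, 1.58 normalised read counts per read, is the coarsest, so its low values are the least precise.

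Differences within a library used log2(value + 1) and exact sign-flip permutation tests. The replicates are labelled biological, and whether each is a single animal is not stated. Alternatives were other scalings, among them TMM (edgeR 4.0.16 in R 4.3.3), lengths, pseudocounts, minimum means, a length correction and leaving out each library. The steps were tested on simulated data. Python 3.11.15, numpy 2.4.6, scipy 1.17.1, pandas 2.3.3 and matplotlib 3.10.9 were used.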

Additional observations from a re-analysis of the deposited data

Results flagged for a closer look

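Of 40 loci tested (the 3 members whatever their mean, and counterparts and listed genes with a mean of 10 or more), 4 had 1 library apart from the other 3 by Dixon's ratio, 2 of them in 12RL. Chance flags about 1 in 20 groups of values, but Myl7 and Myl4 were chosen with their pattern known, so the count is not read against that rate. These were Myl7 with 118 normalised read counts in 12RL (at most 12.5 in the others) and Myl4 with 460 in 12RL (at most 184). Actn3, a skeletal muscle actinin, had 20.5 in 7LR against 13.1 to 14.2 in the others, on 18 reads. Myh11, the smooth muscle myosin heavy chain, was lowest in 8R with 6279, against 8689 to 8910. The share of all loci with any library apart, high or low, is not given here. The flags of Actn3 and Myh11 thus have no background to be read against. For 12RL apart upward the share was 0.529% of the 18912 loci with a mean of at least 10.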

How the results depend on the processing

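No paired analysis was possible because the series has 1 group and the columns carry no replicate numbers. Of 203 alternative values over 19 results, 173 were classed as kept, 30 as moved and 0 as reversed. All 60 values of the 6 pairs of genes are among those kept, and 0 changed sign. Kept does not mean within the spread for these pairs. With merged exons of all models, Myl4 minus Myl3 went from -11.56 ± 0.70 to -8.34. Without division by length, Sln minus Pln went from -15.62 ± 1.29 to -17.77. Counts of nearer loci have no spread to be judged by. Other scalings moved library totals most for 8R, which fell by 6.53% with equal totals. Without scaling, Myl4 in 12RL was 1.80 times the next library and its highest library 2.01 times its lowest. With the locus the interval rule gives first (Cdc27) in place of Myl4, the mean was 3804, the highest library 1.09 times the lowest and 12RL 1.02 times the next.

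The distances between members depended on the pseudocount. With a pseudocount of 10 they were 0.75 (Myl7 and Myl4), 1.12 (Myl7 and Sln) and 0.44 (Myl4 and Sln), with 4 loci nearer to Myl7 than Myl4 and 330 nearer to Myl4 than Sln. With 0.5 the distances of Sln were 1.96 from Myl7 and 1.25 from Myl4, with 6213 loci nearer to Myl7 than Sln. With a minimum mean of 10, 80 loci were nearer to Myl7 than Myl4 and 1184 nearer than Sln. With a minimum of 200 there were 8 nearer than Myl4, and with the length trend taken off 305 nearer than Sln.

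Leaving out each library in turn gave means of 8.91 to 47.6 for Myl7, 177 to 273 for Myl4 and 2.35 to 4.45 for Sln, each lowest without 12RL. The highest to lowest ratio ran from 5.51 to 52.0 (Myl7) and from 1.06 to 2.66 (Myl4). For the ratio of 12RL to the next library, 12RL itself was never left out. Leaving out any other library can keep or raise this ratio but cannot lower it. It ran from 9.44 to 9.91 (Myl7) and from 2.50 to 2.64 (Myl4), which does not measure how steady it is. Distances ran from 0.84 to 1.58 (Myl7 and Myl4), 1.29 to 1.84 (Myl7 and Sln) and 0.47 to 1.05 (Myl4 and Sln), with 4 to 7199, 73 to 13221 and 638 to 13234 loci nearer. The log2 differences per kb ran from -3.84 to -2.55 (Myl7 and Myl4), -2.80 to -1.46 (Sln and Myl7), -5.65 to -4.81 (Sln and Myl4), -16.77 to -14.94 (Myl7 and Myl2), -11.91 to -11.41 (Myl4 and Myl3) and -15.98 to -15.03 (Sln and Pln). Depth limits Sln, with 10 reads in all, and Myl7 outside 12RL, with at most 11 reads in a library.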

Other observations

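Wnt9b and Myl4, 2 of the 4 loci with a mean of 50 or more that reached 2 times the next library in 12RL, lie 800841 bases apart on chromosome 11. This was noticed after the values were seen and has no test. Between them lie 5 loci with a UCSC model and a mean of 50 or more. Of these, 2 were highest in 12RL, at most 1.14 times the next library.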
